A study of Mus musculus with 18 samples.

Results

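The genes of 10 receptors that tune T cell activation were followed across sorted cells of a mouse T cell lymphoma. They are Cd28, Icos, Ctla4, Pdcd1, Cd274, Cd5, Cd6, Cd69, Cd160 and Lag3, named by symbol and taken from the 22180 genes of the array with a probe set that carries 1 gene symbol. Each of the 10 had exactly 1 such probe set, so none of its values was chosen from several. The sorted lymphoma groups were CLP and the stages DN1 to DN4, and LSK cells were the controls, with 3 arrays in each of the 6 groups. CLP stands for common lymphoid progenitors, DN for double negative, meaning without CD4 and CD8, and LSK for lineage-negative, SCA1-positive, KIT-positive stem and progenitor cells.

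All lymphoma cells came from tumours of the thymus in mice with an Lck-Cre transgene, a recombinase driven by a promoter of early T cells. The mice were irradiated sublethally and given bone marrow carrying an NPM-ALK retrovirus, which encodes the oncogenic kinase of a human T cell lymphoma, and the tumours were taken when the animals were moribund. The design names 3 such lymphomas. LSK cells came from bone marrow of wildtype mice 18 months old. Cell type, tissue, genotype, transplantation and irradiation therefore differed together with the lymphoma, and cannot be told apart from it. The sample labels give no age for the lymphoma mice, so age may differ as well. Sex may differ too, and sex-linked RNA is given below. LSK are stem and progenitor cells, and none of the groups holds normal T lineage cells, so a difference from LSK may be one of cell type. Sorting was by KIT, SCA1, IL7Rα, CD25, CD44, CD4 and CD8 and by a lineage panel whose members the sources used here leave unnamed. GEO's descriptions speak instead of aged animals, NIPA knockout or wild type, and of 4 Gy irradiation for 12 arrays, which goes against the genotype labels. The sample titles were followed.

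T cells need a second signal beside the T cell receptor, and the receptors studied here carry or damp it. CD28 and ICOS are costimulatory receptors, while CTLA-4, PD-1 (the product of Pdcd1), LAG-3 and CD160 are known chiefly as inhibitory, or checkpoint, receptors. CD5 and CD6 are related scavenger receptors that damp receptor signals in thymocytes, and CD5 levels are known to follow the strength of those signals. CD69 is an early activation marker that also holds cells in tissue, and PD-L1 (the product of Cd274) is the ligand of PD-1. In human anaplastic large cell lymphoma, NPM-ALK acting through STAT3 is known to induce PD-L1.

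All values are log2 signals, so a difference of 1 is a 2-fold change, and the array has no detection calls. Background was gauged by the 95th percentile of the 1108 olfactory receptor probe sets, which lay between 5.36 and 5.71 over the 18 arrays, and signals under that range were not told apart from background. CLP arrays were the least alike (r of 0.968 to 0.975 across genes, median SD over genes 0.235), and DN2 arrays the most (r of 0.992 to 0.993, median SD 0.138). The LSK arrays differed in sex-linked RNA. Xist, made from the inactive X chromosome, lay between 3.81 and 5.03 on the lymphoma arrays and read 3.55, 10.74 and 10.0 on the LSK arrays 1 to 3. Eif2s3y, a gene of the Y chromosome, lay between 8.62 and 9.44 in the lymphoma and read 8.42, 7.43 and 4.69 in LSK. Results that rest on LSK are therefore also given without single LSK arrays where a call changed. The labelled cell types were checked by their markers. All 7 measured T cell markers were called higher in the lymphoma and lay above the gauge in every lymphoma fraction, and all 7 measured stem cell markers were called lower in the mean of the fractions. In DN1 and DN2 6 of the 7 were, since Kit, the receptor of stem cell factor, averaged 10.77 in DN1 and 10.68 in DN2, against 10.90 in LSK. Cd34, a defining marker of stem and progenitor cells, averaged 5.00 to 5.24 in the lymphoma fractions, below the gauge, and 11.1 in LSK.

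Most of the receptor genes were higher in the lymphoma than in LSK, and the ligand gene was lower. Over the mean of the fractions, 7 of the 10 genes were called higher (13.1% of all genes were) and 1, Cd274, was called lower (15.8% of all genes were). Called means an adjusted p under 0.05 by limma with Benjamini-Hochberg adjustment over all 22180 genes, here for 3 lymphoma means against 3 LSK arrays. The median difference of the 10 genes was 0.94, and that of all genes was 0.05. In order of size the rises were 2.55 for Cd5, 2.10 for Cd6, 1.89 for Cd28, 1.72 for Cd160, 0.95 for Pdcd1, 0.92 for Icos and 0.54 for Lag3. The count was 8 genes without LSK array 1 or array 2, and 9 without array 3, where Cd69 was called lower too. In these bulk samples, more cells that carry an RNA and more RNA per cell cannot be told apart.

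**Figure D1:**
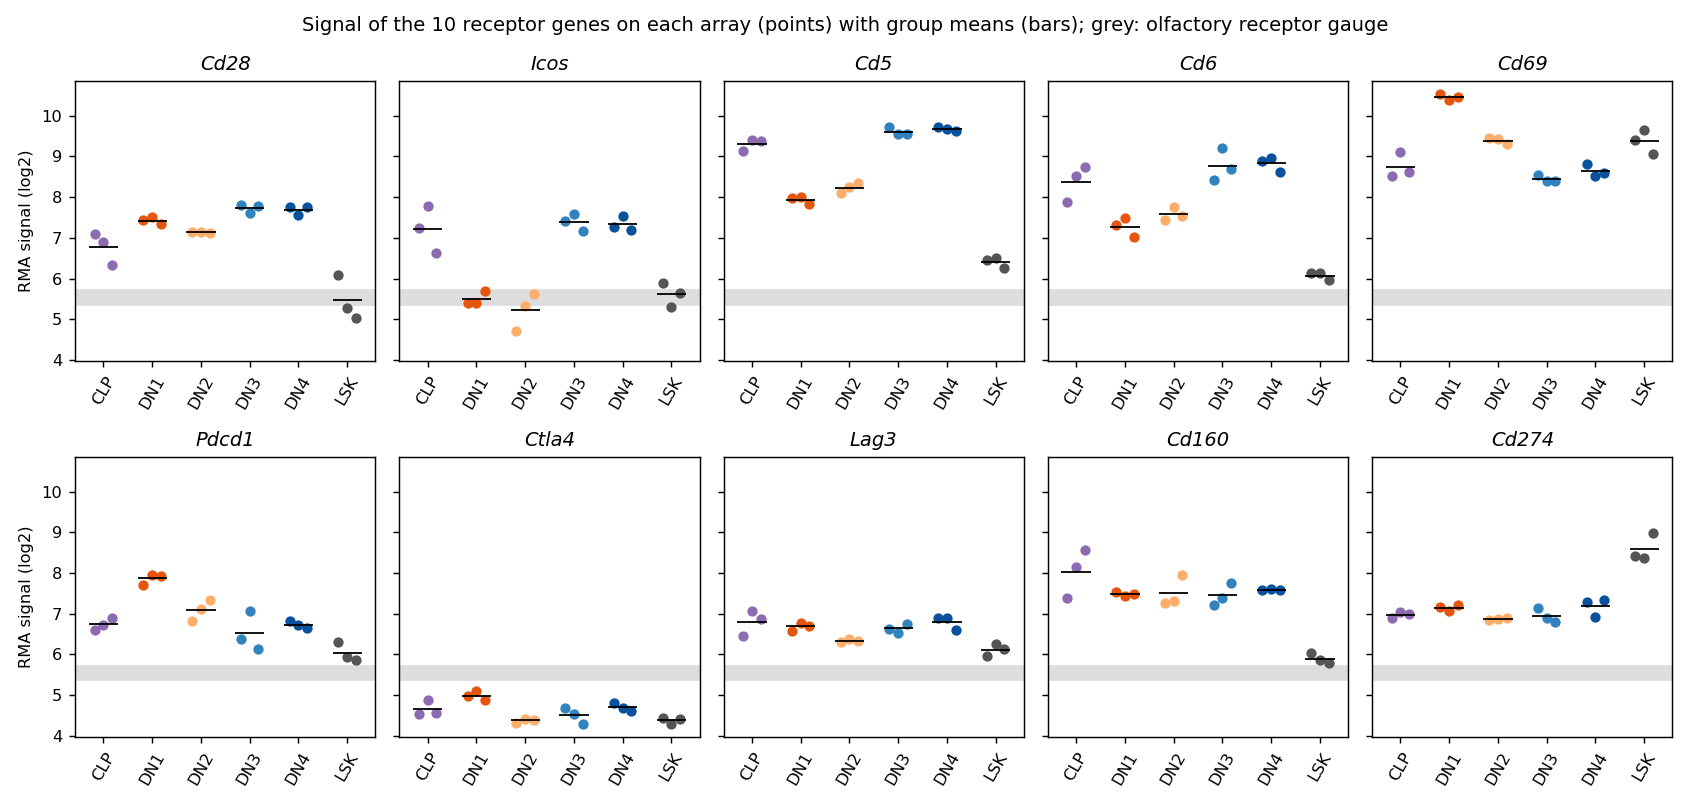
Log2 RMA signal (vertical axes) of the 10 receptor genes in the 5 lymphoma fractions and in LSK, 1 panel per gene, with a point for each array, a bar at the mean of 3 arrays and a grey band for the range of the olfactory receptor gauge over arrays (5.36 to 5.71). Cd5 and Cd6 lie above LSK in every fraction, Cd274 lies below LSK in every fraction, Icos splits into high CLP, DN3 and DN4 against low DN1 and DN2, and Ctla4 lies under the band on all 18 arrays.

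Cd5 (probe set 17362753, chromosome 19) showed the largest rise of the 10. It read 9.12, 9.40 and 9.38 in CLP, 7.97, 8.01 and 7.83 in DN1, 8.09, 8.24 and 8.34 in DN2, 9.73, 9.55 and 9.55 in DN3 and 9.72, 9.67 and 9.64 in DN4, against 6.45, 6.49 and 6.25 in LSK. All 15 lymphoma arrays lay above all LSK arrays, and the fractions formed a low pair, DN1 and DN2, and a high trio, CLP, DN3 and DN4. The mean of the fractions was 8.95, against 6.40 in LSK, a 5.86-fold difference (log2 2.55, SE 0.101, adjusted p = 9.54e-08). The lymphoma fractions also differed among themselves (F test over 15 arrays, adjusted p = 3.12e-08).

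Cd6 (probe set 17362765), the neighbour of Cd5 with 0 protein-coding genes between them in the RefSeq table, encodes the related receptor whose ligand is ALCAM. It read 7.87, 8.52 and 8.74 in CLP, 7.31, 7.48 and 7.02 in DN1, 7.43, 7.76 and 7.54 in DN2, 8.41, 9.20 and 8.68 in DN3 and 8.89, 8.97 and 8.63 in DN4, against 6.13, 6.12 and 5.96 in LSK. Its groups stood in the order DN4, DN3, CLP, DN2, DN1 and LSK, which is also the order of Cd5. The rise over LSK was 4.27-fold (log2 2.10, SE 0.123, adjusted p = 1.23e-06), and the fractions differed (adjusted p = 0.000178). The sources used here do not say whether CD5 was in the lineage panel of the sort.

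The promoters of Cd5, Cd274 and Pdcd1 are shown because these genes carry the largest rise, the fall and a peak in DN1, and are among the 5 of the 10 genes with a promoter in the RefSeq table used (GRCm38.p6). Each runs 5′ to 3′ on the gene's own strand, over 300 bases, most of them before the annotated start and the last few after it. Cd5 lies at chr19:10738925-10739224 on the minus strand, Cd274 at chr19:29367188-29367487 on the plus strand and Pdcd1 at chr1:94052504-94052803 on the minus strand. Capitals mark E-box letters.
Cd5: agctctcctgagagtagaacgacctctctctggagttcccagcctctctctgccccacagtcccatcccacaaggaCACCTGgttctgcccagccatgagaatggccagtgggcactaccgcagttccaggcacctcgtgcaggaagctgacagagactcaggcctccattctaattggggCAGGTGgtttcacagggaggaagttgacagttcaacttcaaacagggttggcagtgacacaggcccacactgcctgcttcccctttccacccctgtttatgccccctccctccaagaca
Cd274: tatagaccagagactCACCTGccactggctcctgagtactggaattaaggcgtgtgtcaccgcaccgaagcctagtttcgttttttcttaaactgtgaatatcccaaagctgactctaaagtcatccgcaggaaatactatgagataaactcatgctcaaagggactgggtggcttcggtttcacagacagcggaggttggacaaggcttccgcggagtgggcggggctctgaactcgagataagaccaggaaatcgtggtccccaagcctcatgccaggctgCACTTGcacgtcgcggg
Pdcd1: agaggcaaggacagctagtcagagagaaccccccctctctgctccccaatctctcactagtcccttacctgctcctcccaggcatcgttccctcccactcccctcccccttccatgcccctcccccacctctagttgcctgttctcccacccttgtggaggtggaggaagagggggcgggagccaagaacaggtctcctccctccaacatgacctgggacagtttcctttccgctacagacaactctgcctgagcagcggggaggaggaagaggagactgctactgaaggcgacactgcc

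Both strands were searched for the E-box letters CANNTG, for TTCNNNGAA, read by STAT factors, and for TGTGGT, read by RUNX factors. Cd5 and Cd274 each held 2 E-box matches and Pdcd1 held none, and 72.3% of the 32851 promoters of this length in the table held at least 1. The STAT letters stood in 8.30% and the RUNX letters in 16.8% of those promoters, and in none of the 3 shown. Of the promoters searched but not shown, that of Ctla4 held neither. Cd160 has 2 starts in the table, with 1 RUNX match at each and 1 STAT match at start 2. No match overlapped another. A match describes these letters only, and its absence says nothing of a factor.

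Cd28 (probe set 17213462, chromosome 1), the main costimulatory receptor, was higher in every lymphoma fraction. It read 7.10, 6.90 and 6.33 in CLP, 7.43, 7.51 and 7.33 in DN1, 7.15, 7.15 and 7.11 in DN2, 7.80, 7.61 and 7.78 in DN3 and 7.77, 7.56 and 7.75 in DN4, against 6.08, 5.28 and 5.03 in LSK. All 15 lymphoma arrays lay above all LSK arrays, and the LSK arrays were themselves spread over more than 1 log2 unit, with LSK arrays 2 and 3 under their gauge. The rise was 3.71-fold over LSK (log2 1.89, SE 0.227, adjusted p = 0.000178), a size bounded by the background that LSK reached. CLP was the lowest fraction for Cd28, at 6.78 ± 0.401, and DN3 the highest, at 7.73 ± 0.104 (mean ± SD, n = 3 each).

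Icos (probe set 17213490, chromosome 1), the inducible costimulator, divided the fractions more sharply than Cd28. It read 7.23, 7.78 and 6.63 in CLP, 7.41, 7.60 and 7.18 in DN3 and 7.28, 7.54 and 7.19 in DN4. In DN1 it read 5.41, 5.39 and 5.68 and in DN2 4.72, 5.33 and 5.61, against 5.89, 5.29 and 5.65 in LSK. CLP, DN3 and DN4 lay above all LSK arrays, while DN1 and DN2 overlapped LSK at background, with 1 of their 6 arrays above its own gauge. Averaged over the fractions the rise was 1.89-fold (log2 0.92, SE 0.158, adjusted p = 0.00174), a mean that holds both kinds of fraction. Icos differed among fractions with an adjusted p of 4.76e-06 and a span of 2.18 between the highest and lowest fraction means.

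Pdcd1 (probe set 17225801, chromosome 1) was highest in DN1. It read 6.60, 6.72 and 6.88 in CLP, 7.70, 7.95 and 7.93 in DN1, 6.81, 7.10 and 7.34 in DN2, 6.38, 7.07 and 6.12 in DN3 and 6.83, 6.71 and 6.64 in DN4, against 6.30, 5.93 and 5.86 in LSK. Of the lymphoma arrays, 14 lay above all LSK arrays, and the exception was DN3 array 3. The rise was 1.94-fold over LSK (log2 0.95, SE 0.134, adjusted p = 0.000501), and the fractions differed (adjusted p = 0.0012, span 1.34).

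The other checkpoint receptors varied less among fractions. Cd160 (probe set 17408123, chromosome 3), which binds the herpesvirus entry mediator, ranged from 7.22 to 8.56 with a median of 7.54 over the 15 lymphoma arrays, against 6.02, 5.86 and 5.79 in LSK. The groups did not overlap, and the rise was 3.29-fold (log2 1.72, SE 0.134, adjusted p = 8.75e-06). Lag3 (probe set 17470976, chromosome 6), a receptor for MHC class II, ranged from 6.31 to 7.07 with a median of 6.63, against 5.96, 6.25 and 6.13 in LSK. All 15 lymphoma arrays lay above LSK here too, by a small margin, and the rise was 1.45-fold (log2 0.54, SE 0.108, adjusted p = 0.00459). A difference among fractions was not called for Cd160 (adjusted p = 0.492) or Lag3 (adjusted p = 0.269), but both were called without CLP array 1 (lowest adjusted p over alternatives 0.0274 and 0.0376). When single arrays were left out, between 6 and 9 of the 10 genes differed, beside between 1409 and 2607 of all genes. In the main fit the counts were 6 and 1748.

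Ctla4 (probe set 17213478, chromosome 1), the inhibitory rival of CD28 for its ligands, lies between Cd28 and Icos on chromosome 1, with 0 protein-coding genes separating it from either. It ranged from 4.29 to 5.10 with a median of 4.59 in the lymphoma, against 4.44, 4.28 and 4.42 in LSK. All 18 arrays lay under their gauge, so Ctla4 was not told apart from background in any group. The difference of 0.26 over LSK (SE 0.0998) was not called at an adjusted p of 0.0789, and it was called when the DN2 arrays were left out or the arrays were centred on their medians (lowest adjusted p 0.0415).

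Cd274 (probe set 17358544, chromosome 19), the gene of PD-L1, was the one gene of the 10 that was called lower in the lymphoma as a whole. It read 6.89, 7.04 and 6.99 in CLP, 7.16, 7.05 and 7.22 in DN1, 6.84, 6.85 and 6.90 in DN2, 7.14, 6.89 and 6.80 in DN3 and 7.30, 6.92 and 7.33 in DN4, against 8.42, 8.38 and 8.98 in LSK. All 15 lymphoma arrays lay below all LSK arrays, yet all 15 lay above the gauge. The difference was -1.57 (SE 0.157, adjusted p = 4.82e-05), a level 2.98-fold lower, and it kept its direction and its call without each LSK array. A difference among fractions was not called (adjusted p = 0.494, span 0.32). Markers of several cell types were called lower in this comparison too, beside 15.8% of all genes. All 7 stem cell markers were, with 3 of 4 erythroid and megakaryocyte markers and 2 of 5 dendritic cell markers. All 7 T cell markers were called higher. Most markers of myeloid cells were lower as well, and LSK cells are sorted as lineage-negative. Of the 8 macrophage and monocyte markers, 7 were called lower and 1, Cd68, was called higher (8.24 to 8.86 over the fractions, 8.09 in LSK). The summed log2 signal of the 8 was 46.4 to 52.7 on the lymphoma arrays and 60.5 to 62.0 on the LSK arrays. Of the granulocyte markers 6 of 7 were called lower, with sums of 33.0 to 37.8 on the lymphoma arrays and 53.6 to 59.0 on the LSK arrays. Their part in the result was not tested.

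Cd69 (probe set 17471502, chromosome 6) lay above LSK in 1 fraction and below it in others. It read 8.52, 9.12 and 8.61 in CLP, 10.54, 10.40 and 10.47 in DN1, 9.45, 9.42 and 9.30 in DN2, 8.53, 8.41 and 8.39 in DN3 and 8.83, 8.53 and 8.58 in DN4, against 9.42, 9.66 and 9.07 in LSK. DN1 lay above all LSK arrays, DN3 and DN4 lay below all of them, and DN2 lay among them. The mean over these unlike fractions was not called (-0.24, SE 0.144, adjusted p = 0.249). It became -0.57 and was called when the DN1 arrays were left out (adjusted p = 0.0146), and was also called without LSK array 3 (adjusted p = 0.0234). Among fractions Cd69 differed with an adjusted p of 2.81e-07 and a span of 2.03.

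Tested fraction by fraction against the 3 LSK arrays, the number of called genes ran from 6 to 9 of the 10. In CLP 7 were higher (6.54% of all genes) and 1 lower (11.2%). In DN1 8 were higher (7.45%) and 1 lower (12.3%), in DN2 5 were higher (11.4%) and 1 lower (14%), in DN3 6 were higher (11.4%) and 2 lower (13.1%), and in DN4 7 were higher (11.8%) and 2 lower (14.9%). These comparisons share the LSK arrays. The CLP shares rest on 3928 called genes, which were 2559 without LSK array 1 and 6140 in a model of all 18 arrays. Cd5, Cd6, Cd28 and Cd160 were called higher and Cd274 lower in all 5 fractions. Cd274 differed from LSK by -1.73 in DN2 (SE 0.161) at the most and by -1.41 in DN4 (SE 0.181) at the least. Cd69 was higher by 1.09 in DN1 (SE 0.166, adjusted p = 0.000687) and lower in DN3, at -0.94 (SE 0.159, adjusted p = 0.00111), and in DN4, at -0.74 (SE 0.162, adjusted p = 0.00549).

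**Figure D2:**
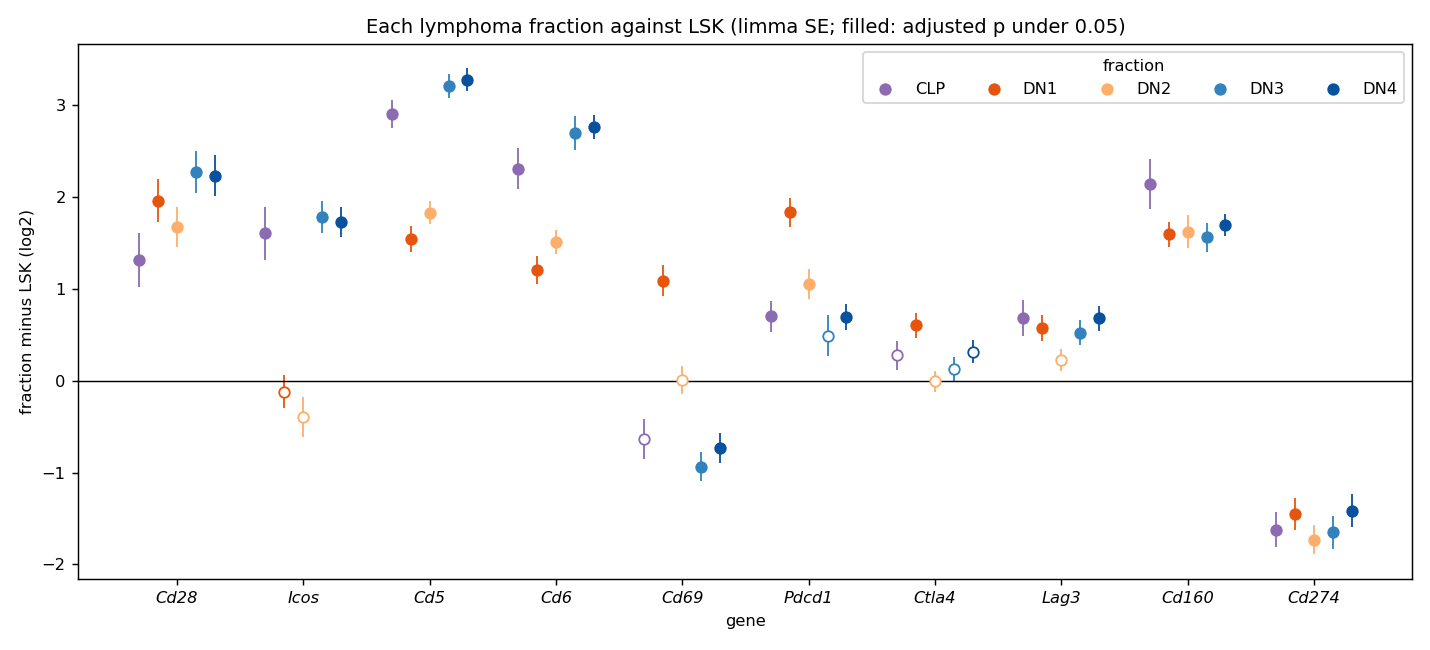
Difference of each lymphoma fraction from LSK in log2 units (vertical axis) for the 10 genes (horizontal axis), with the limma standard error as a bar and filled points for an adjusted p under 0.05. Cd5 and Cd6 stand highest in DN3 and DN4, Cd69 stands at 1.09 in DN1 and at -0.94 in DN3, and Cd274 lies between -1.73 and -1.41 in all fractions.

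Besides Cd69, the calls of Icos, Pdcd1, Ctla4 and Lag3 differed between fractions. Icos was called in CLP (1.60, SE 0.286, adjusted p = 0.00464), DN3 (1.78, SE 0.174) and DN4 (1.73, SE 0.166), and not in DN1 (-0.12, adjusted p = 0.712) or DN2 (-0.39, adjusted p = 0.236). Pdcd1 was called in CLP (0.70), DN1 (1.83, SE 0.16, adjusted p = 9.85e-06), DN2 (1.05) and DN4 (0.69), and not in DN3 (0.49, adjusted p = 0.149), where its 3 arrays were the most spread. Ctla4 was called in DN1 alone (0.60, SE 0.136, adjusted p = 0.00846), from a DN1 mean of 4.98 that lies under the gauge. Lag3 was called everywhere but in DN2 (0.22, adjusted p = 0.228).

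Several of these calls rested on single arrays. In CLP, where 5 genes were called without LSK array 2 and 5 without LSK array 3, the calls of Pdcd1, Cd28 and Lag3 were lost in some alternatives, with adjusted p up to 0.0957 for Pdcd1, 0.0671 for Cd28 and 0.154 for Lag3. The Lag3 calls in DN1 and DN3 were lost without LSK array 1, and without DN1 array 2 or DN3 array 3, with adjusted p up to 0.0766 in DN1 and 0.0623 in DN3. In DN2 and DN4 the counts were 6 and 9 in every alternative run.

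Among the lymphoma fractions alone, in 1 model of the 15 arrays, 6 of the 10 genes differed (7.88% of all genes did). They were Cd5, Cd69, Icos, Cd6, Pdcd1 and Cd28, and Ctla4, Lag3, Cd160 and Cd274 were not called. Ctla4, under the gauge throughout, was called in 5 of 21 alternatives (lowest adjusted p 0.0173, and 0.0384 with a replicate block). The differences followed the DN stages in opposite directions. Icos, Cd5 and Cd6 were higher in the later stages, while Cd69 and Pdcd1 were lower in them.

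In DN2 against DN1, 0 of the 10 genes were called higher (0.708% of all genes) and 2, Cd69 and Ctla4, were called lower (0.645%). Cd69 averaged 9.39 ± 0.0789 in DN2 and 10.47 ± 0.0736 in DN1 (mean ± SD, n = 3 each), a difference of -1.08 (SE 0.151, adjusted p = 0.000816). The difference of Ctla4, -0.61 (SE 0.137, adjusted p = 0.0324), lay under the gauge and lost its call in 9 of 20 alternatives (adjusted p up to 0.14). Pdcd1 averaged 7.08 ± 0.268 in DN2 and 7.86 ± 0.138 in DN1, a difference of -0.78 (SE 0.199) that was not called at an adjusted p of 0.0689 and was called in 3 alternatives. At an unadjusted p under 0.05, 5 of the 10 genes passed, but the share of all genes at that threshold was not counted, so nothing is read from it. Over all genes 300 were called in this pair, 144 without DN2 array 2 and 168 without DN2 array 3.

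In DN3 against DN2, 3 genes were called higher (1.3% of all genes) and 1 was called lower (1.15%). Icos averaged 7.39 ± 0.211 in DN3 and 5.22 ± 0.456 in DN2 (log2 2.18, SE 0.249, adjusted p = 2.96e-05), and since 2 of the 3 DN2 arrays were under their gauge, the size of the rise is limited by background. Cd5 averaged 9.61 ± 0.103 in DN3 and 8.23 ± 0.125 in DN2 (log2 1.38, SE 0.125, adjusted p = 2.02e-06). Cd6 averaged 8.77 ± 0.402 in DN3 and 7.58 ± 0.165 in DN2 (log2 1.19, SE 0.222, adjusted p = 0.00443). For all 3 genes the DN3 arrays lay above all DN2 arrays, which describes the same values as the calls and adds no test. Cd69 fell to 8.44 ± 0.0785 in DN3, against 9.39 ± 0.0789 in DN2 (log2 -0.95, SE 0.151, adjusted p = 0.000998). Cd28 was 0.59 higher in DN3 (SE 0.162), which was not called at an adjusted p of 0.0728, and was called without CLP array 1 or array 3, which entered the shared spread.

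In DN4 against DN3 none of the 10 genes was called by limma, and 0 passed an unadjusted p under 0.05 either. Over all genes 0% were called higher and 0.00451% lower, which was 1 gene of 22180 (2 without DN3 array 1). The differences of the 10 genes lay between -0.06 for Icos and 0.24 for Cd274, with standard errors of 0.125 to 0.249. Icos, for example, averaged 7.34 ± 0.179 in DN4 and 7.39 ± 0.211 in DN3.

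Between the ends of the series, DN4 against DN1, 3 genes were called higher (2.82% of all genes) and 2 were called lower (2.79%). Icos was higher by 1.84 (SE 0.249, adjusted p = 8.58e-05), Cd5 by 1.74 (SE 0.125, adjusted p = 5.25e-08) and Cd6 by 1.56 (SE 0.222, adjusted p = 0.000149), with Icos under the gauge on all DN1 arrays. Pdcd1 averaged 6.73 ± 0.0919 in DN4 and 7.86 ± 0.138 in DN1, a difference of -1.14 (SE 0.199, adjusted p = 0.00121). Cd69 averaged 8.65 ± 0.16 in DN4 and 10.47 ± 0.0736 in DN1, a difference of -1.82 (SE 0.151, adjusted p = 2.95e-07). All 5 calls held in all 21 alternatives. DN3 against DN1 gave the same directions for these 5 genes, with Ctla4 called lower as well (3.92% of all genes were called higher in that pair and 2.77% lower).

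**Figure D3:**
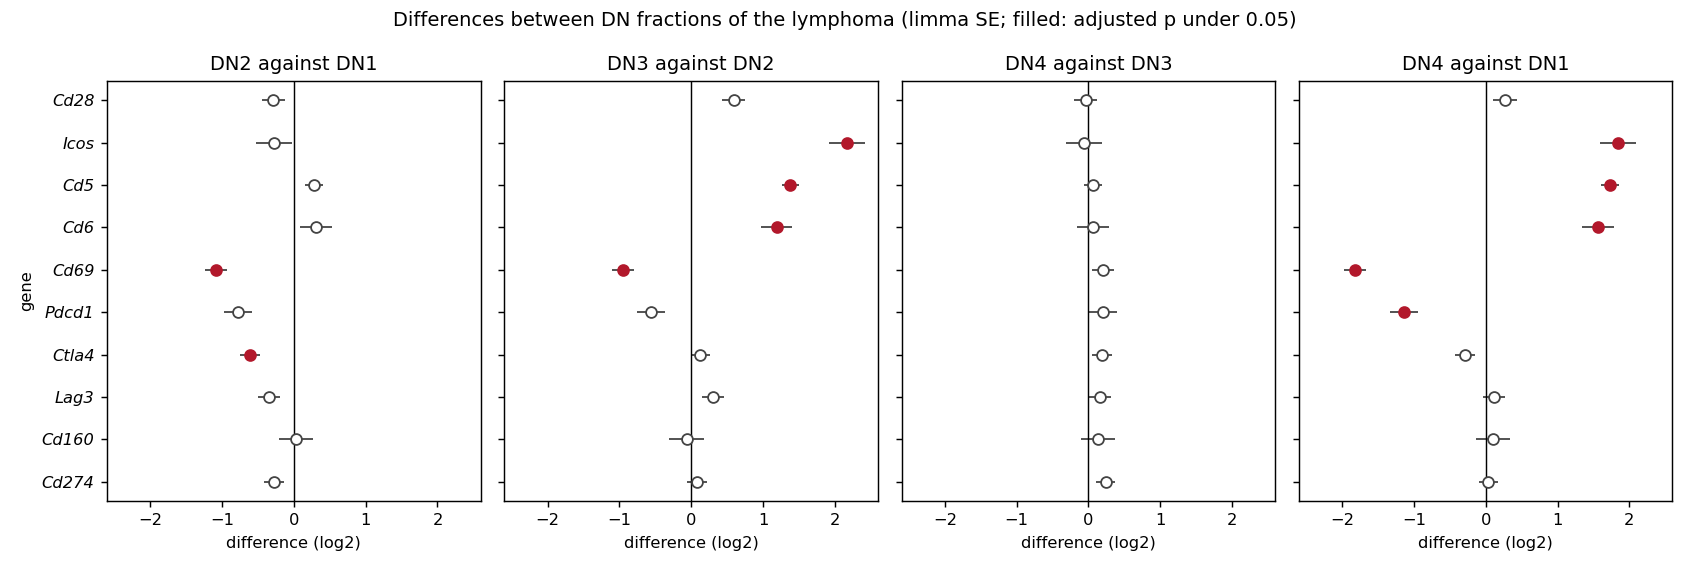
Differences between DN fractions of the lymphoma in log2 units (horizontal axes) for the 10 genes (vertical axis), 1 panel for each pair, later stage minus earlier, with limma standard errors as bars and filled points for an adjusted p under 0.05. Icos, Cd5 and Cd6 are higher in DN3 than in DN2 by 1.19 to 2.18, Cd69 is lower in DN2 than in DN1 and lower again in DN3, and no point is filled for DN4 against DN3.

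Markers of other cell types also changed over the stages in which Cd69 and Pdcd1 fell. The summed log2 signal of 6 plasma cell markers was 36.1 to 37.1 in DN4 and 42.5 to 44.3 in DN1. Jchain, which joins antibody chains, averaged 4.09 in DN4, under the gauge, and 8.60 in DN1, and 3 of the 6 markers were called lower in DN4. The other 3 were not called, among them Sdc1 (7.87 in DN4 and 7.72 in DN1) and Tnfrsf17, under the gauge in both stages. The summed signal of 8 macrophage and monocyte markers was 46.4 to 46.9 in DN4 and 52.0 to 52.7 in DN1, with 2 of 8 called lower, Ly6c2 (6.92 in DN4 and 10.6 in DN1) and Itgam (5.92 in DN4 and 6.80 in DN1). The other 6 were not called. Of these, Cd68 averaged 8.75 in DN4 and 8.86 in DN1, and Lyz2, Cd14 and Adgre1 averaged under the gauge in both stages. Of 5 NK and innate lymphoid markers, whose summed signal was 22.6 to 23.7 in DN4 and 25.7 to 26.1 in DN1, Itga2 was called lower (5.74 in DN4 and 8.28 in DN1), while Ncr1 and Klrb1c lay under the gauge in all groups. Of 7 stem cell markers 1 was called lower, Kit, a marker of the sort, which averaged 8.20 in DN4 and 10.77 in DN1 and had its fall between DN2 and DN3 (8.06 in DN3 and 10.68 in DN2). Of 7 T cell markers, 2 were called higher in DN4. Of 5 regulatory T cell markers, 2 were called higher in DN4 than in DN1 and 3, Foxp3 among them, were not called. Foxp3, the defining gene of regulatory T cells, which are known for high Ctla4 and Icos, averaged 4.54 to 4.80 over the fractions, under the gauge. Whether cells of these types were present, and what part they had in the results for Cd69, Pdcd1 and Icos, was not tested.

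CLP differed from the mean of DN1 to DN4 in 4 of the 10 genes, with 2 called higher (1.51% of all genes) and 2 called lower (2.93%). The 984 genes called in all became 1939 without CLP array 1 and 609 without CLP array 2. Icos was higher by 0.86 in CLP (SE 0.197, adjusted p = 0.0218) and Cd5 by 0.44 (SE 0.099, adjusted p = 0.0197). Cd28 averaged 6.78 in CLP and 7.50 over the DN fractions (log2 -0.72, SE 0.128, adjusted p = 0.005), and Cd69 averaged 8.75 in CLP and 9.24 over the DN fractions (log2 -0.49, SE 0.119, adjusted p = 0.0292). The mean of the DN fractions lies between unlike stages, and CLP stood near DN3 and DN4 for Icos, Cd5, Cd6 and Cd69. Leaving out CLP arrays ended the calls of Icos (array 2), Cd5 (array 2 or 3) and Cd69 (array 1 or 3), with adjusted p up to 0.146, 0.088 and 0.0991, and left that of Cd28. Cd160 was called higher in CLP only without CLP array 1.

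Other genes of these pathways were read from 5 lists. Of 18 other costimulatory and inhibitory receptors, 10 were called higher and 6 lower over the mean of the fractions against LSK, beside 13.1% and 15.8% of all genes (list median 0.50, all genes 0.05). Cd2, an adhesion and costimulatory receptor of T cells, was higher by 3.18 (SE 0.155, adjusted p = 3.53e-07), at a mean of 9.13 in the lymphoma and 5.95 in LSK. The myeloid and T cell inhibitory receptor Cd200r1 differed by -2.32, the checkpoint receptor Havcr2 by -1.90 and the costimulator Tnfrsf9 by -1.81, and each averaged under the gauge in the lymphoma, at 3.65, 3.91 and 5.14, against 5.97, 5.82 and 6.95 in LSK. Leaving out genes near background reduced the called genes of this list to 10.

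Among fractions, 4 of the 18 receptors differed, beside 7.88% of all genes. Vsir, the gene of the checkpoint receptor VISTA, averaged 6.98 in CLP and 8.16, 7.23, 6.69 and 6.78 over DN1 to DN4 (adjusted p = 1.75e-05), with its highest mean in DN1, as for Cd69. It was lower in DN4 than in DN1, with a difference of -1.38 (SE 0.152, adjusted p = 8.7e-06). Btla, an inhibitory receptor that shares the herpesvirus entry mediator with CD160, averaged 6.58 in CLP and 7.06, 6.32, 7.52 and 7.60 over DN1 to DN4 (adjusted p = 0.000274).

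Of 19 measured ligand genes (of 20 listed), 3 were called higher and 9 lower against LSK, beside 13.1% and 15.8% of all genes (list median -0.36). Alcam, the CD6 ligand, averaged 5.68 in the lymphoma and 8.36 in LSK (log2 -2.68, SE 0.205, adjusted p = 7.9e-06). Pvr, which TIGIT and CD226 bind, differed by -1.99, Cd276 by -1.50 and Cd86, which CD28 and CTLA-4 share, by -1.33, with Pvr and Cd86 under the gauge in the lymphoma. Cd80, the other shared ligand, was called higher by 0.70 (adjusted p = 0.0105), and that call was lost without the DN1 arrays (adjusted p = 0.105).

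Among fractions 4 of the 19 ligand genes differed, beside 7.88% of all genes. Cd80 averaged 6.95 in CLP and 7.94, 7.02, 6.42 and 5.90 over DN1 to DN4 (adjusted p = 1.84e-05), and DN4 differed from DN1 by -2.03 (SE 0.195, adjusted p = 1.86e-06). Tnfsf9, the ligand of the costimulator 4-1BB, differed by -0.86 between DN4 and DN1 (SE 0.188, adjusted p = 0.00791).

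In the CD28 signalling list, 13 of 17 genes were measured, 4 were called higher and 5 lower against LSK, beside 13.1% and 15.8% of all genes (list median -0.02). Grap2, the adaptor that links LAT and SLP-76, was higher by 3.92 (SE 0.174, adjusted p = 1.92e-07), and Prkcq, the kinase PKC-theta, by 2.04 (SE 0.146, adjusted p = 5.12e-06). Rel, the NF-κB subunit that CD28 signals are known to engage, averaged 6.78 in the lymphoma and 10.42 in LSK (log2 -3.64, SE 0.145, adjusted p = 9.68e-08). Among fractions 4 of the 13 genes differed, beside 7.88% of all genes. Fyn, a Src family kinase, was higher by 1.06 in DN4 than in DN1 (SE 0.12, adjusted p = 1.19e-05), and Prkcq differed by -0.82 (SE 0.117, adjusted p = 0.00015).

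Of 17 genes of inhibitory signalling, 10 were called higher and 4 lower against LSK, beside 13.1% and 15.8% of all genes (list median 0.59). Sh2d2a, a T cell adaptor, was higher by 3.85 (SE 0.145, adjusted p = 7.11e-08), Sit1, a membrane adaptor that damps receptor signals, by 3.85 (SE 0.216, adjusted p = 9.15e-07, with LSK at background) and Ptpn22, a phosphatase of Src family kinases, by 3.13 (SE 0.147, adjusted p = 2.78e-07). Ubash3b, a phosphatase that targets ZAP-70 and SYK, averaged 5.54 in the lymphoma and 8.19 in LSK (log2 -2.66, SE 0.0961, adjusted p = 5.32e-08). It was also among the 4 of 17 that differed between fractions, beside 7.88% of all genes. It averaged 5.05 in DN4, under the gauge, and 6.43 in DN1 (log2 -1.37, SE 0.155, adjusted p = 1.21e-05), so the size is limited by background. Sit1 was called among fractions too (adjusted p = 0.0251), and lost that call in 5 of 22 alternatives.

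Of 16 measured regulators of checkpoint gene transcription (of 17 listed), 4 were called higher and 6 lower against LSK, beside 13.1% and 15.8% of all genes (list median -0.21). Tox, a factor of thymocyte selection and of exhausted T cells, was higher by 1.57 (SE 0.113, adjusted p = 5.13e-06), Ikzf2 (Helios) by 1.20 (SE 0.155, adjusted p = 0.000289) and Tox2 by 0.64 (SE 0.101, adjusted p = 0.000993), while Myc differed by -0.99 (SE 0.136, adjusted p = 0.000438). Among fractions 4 of the 16 differed, beside 7.88% of all genes. Ikzf2 averaged 7.87, 7.33, 8.45 and 8.68 over DN1 to DN4 (adjusted p = 0.000854). Bcl6, a repressor of T helper cell fates, was lower in DN4 than in DN1, with a difference of -0.95 (SE 0.198, adjusted p = 0.0055).

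**Figure D4:**
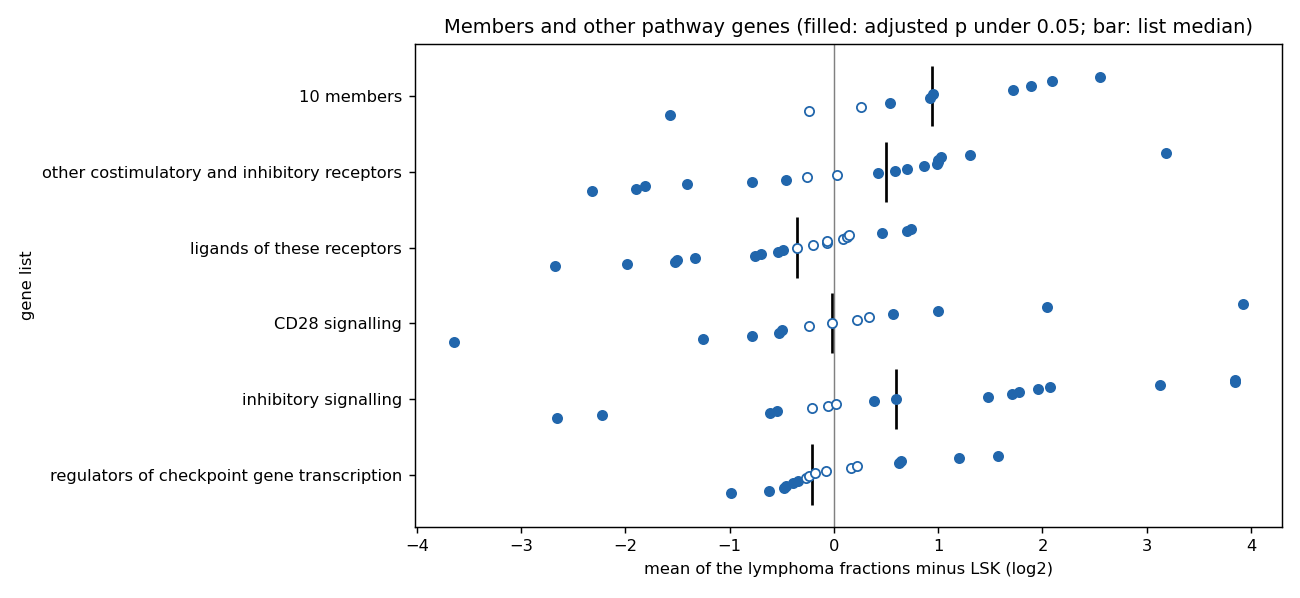
Difference of the mean of the lymphoma fractions from LSK in log2 units (horizontal axis) for the 10 receptor genes and for the genes of 5 pathway lists (vertical axis), with 1 point per gene, filled for an adjusted p under 0.05, and a bar at the list median. The medians are 0.94 for the 10 genes, 0.50 for other receptors, -0.36 for ligands, -0.02 for CD28 signalling, 0.59 for inhibitory signalling and -0.21 for regulators.

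The genes whose values ran closest to each receptor gene were found by the root mean square difference of the array values, each gene centred on its own mean over 18 arrays. It was computed for the 8 genes whose group means spanned at least 1 log2 unit. It is a description over arrays that share 6 groups, and has no p. The lowest value was 0.126, between Cd274 and Lpcat2, an enzyme of phospholipid remodelling, which averaged 4.43 to 4.71 in the lymphoma fractions and 6.06 in LSK. Abca1 (0.136), a cholesterol exporter, and Sgce (0.172) followed for Cd274. All 3 averaged under the gauge in every lymphoma fraction, so their course there is not told apart from background and their closeness rests on the gap to LSK. Cd5 ran closest to Izumo1r (0.20), the folate receptor family gene also known as Folr4, which averaged 9.06 in CLP and 7.42, 7.85, 9.56 and 9.30 over DN1 to DN4, against 5.99 in LSK. The cytokine receptor genes Il12rb2 (0.234) and Il9r (0.236) came next for Cd5, and both were also among the nearest to Cd6, at 0.306 and 0.279, followed by Cdon (0.308).

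Pdcd1 ran closest to Sting1 (0.182), the adaptor of cytosolic DNA sensing, which averaged 9.96 in CLP and 10.92, 10.15, 9.59 and 9.61 over DN1 to DN4, against 9.08 in LSK, and then to Cndp2 (0.25) and Rps6ka3 (0.266). Cd69 ran closest to Fbxo33 (0.234), which averaged 9.05 in DN1 and 7.33 in DN3, against 7.83 in LSK. Tgfbr3 (0.285) and Vsir (0.298) came next for Cd69. Tgfbr3 averaged 5.36 in CLP, 5.32 in DN3 and 5.17 in DN4, under the gauge of the arrays of each. Cd160 ran closest to Mndal (0.197), an interferon-inducible gene, and then to Prim2 (0.233), a primase subunit, and Fah (0.246). The nearest genes to Icos were Ets2 (0.362), Agfg1 (0.367) and Slc16a10 (0.412), and those to Cd28 were Gdf11 (0.318), Man2a1 (0.327) and Satb1 (0.332), and these nearest genes lay farther off than those of the other 6. Ets2, a transcription factor, averaged 8.10 in CLP and 6.57, 6.92, 8.79 and 8.75 over DN1 to DN4, against 6.88 in LSK.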

How the data were processed

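RNA of 18 samples, 3 in each of 6 groups taken from the sample titles, was measured on Affymetrix arrays. The deposited values are log2 signals, made by the authors with RMA in the oligo package, per the submitters' processing notes, with versions and genome build not given in the sources used here. No further normalization was applied. Of 41345 probe sets, 23521 carry 1 gene symbol, 1814 several and 16010 none. Only the first kind was tested, and the brightest by mean over arrays stood for each of 22180 genes. limma 3.58.1 in R 4.3.3 (lmFit, eBayes, two-sided) tested each comparison, with Benjamini-Hochberg adjustment over all genes and a threshold of 0.05. For the lymphoma as a whole, the 5 fractions were averaged within a replicate number, because same-numbered arrays may share an animal. Fractions were compared with each other in 1 model of 15 arrays. SE is limma's standard error.

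The 10 genes and all lists were chosen with earlier results of these data known. From each list, the 4 genes with the smallest adjusted p against LSK and the 2 with the smallest among fractions are named if called, except 1 gene that is not reported here. The 3 nearest genes leave out predicted, clone-named, small RNA, olfactory and antigen receptor genes. The fits were tested on simulated data. Labels do not say that arrays of a group are separate animals, so p-values may measure technical spread, and 3 arrays a group limit precision. Replicate numbers come from the titles. The labels do not say what a number shares, and fractions were compared without a block. Alternatives were a filter on low values, quantile normalization, median centring, the mean of probe sets, a trended and robust prior, 1 model of all 18 arrays, a replicate block, and omission of single fractions or arrays.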

Additional observations from a re-analysis of the deposited data

Results flagged for a closer look

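Cd69 was looked at again because its differences from LSK had opposite signs in fractions of the same lymphoma, and the difference between those fractions was itself called. DN3 differed from DN1 by -2.03 (SE 0.151, adjusted p = 8.18e-08, limma, 15 lymphoma arrays), with DN3 at -0.94 and DN1 at 1.09 against LSK. DN4 differed from DN1 by -1.82 (SE 0.151, adjusted p = 2.95e-07), with DN4 at -0.74 against LSK. In both pairs all 3 arrays of the later stage lay below all 3 DN1 arrays, which describes the values that flagged the gene and is no further check. The calls of DN1, DN3 and DN4 against LSK kept their direction in all alternatives run, also without each LSK array. In DN4 against DN1, 3 of 6 plasma cell markers and 2 of 8 macrophage and monocyte markers were called lower too, and their part was not tested.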

How the results depend on the processing

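Under the alternatives, 197 counts of called receptor genes stayed within 1.5 times of the reported count and 13 did not. Of the single values of the 10 genes, 2009 kept direction and side of the threshold, 32 lost a call, 20 gained one and 25 turned sign. Settings that moved a count were quantile normalization and median centring, which each left 1 gene (Cd69) called in DN2 against DN1 in place of 2, the filter on low values, which left 10 other receptors called against LSK in place of 16, with fewer genes tested, and leaving CLP out of the F test, which called 7 regulators in place of 4. Leaving out 1 array gave 5 to 8 called genes for CLP against LSK, 2 to 4 for CLP against the DN mean and 1 to 3 for DN2 against DN1. It gave 6 to 11 regulators called against LSK and 3 to 7 among fractions, 1 to 6 inhibitory signalling genes and 3 to 7 other receptors among fractions. The cause was not tested.

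Same-numbered arrays of different fractions deviated together (r over 0.1) in 21 of 30 pairs (range -0.193 to 0.346, median 0.121), and differently numbered ones in 6 of 60 (median -0.073). Of the 15 lymphoma arrays, 11 correlated best with their own number, which is a hint from the data and not from the design, and the numbers were not taken as pairs. With the replicate block the counts of called genes of the 10 were 8 for the lymphoma mean, 7 for CLP, 9 for DN1, 6 for DN2, 8 for DN3, 9 for DN4, 7 in the F test, 2 for DN2 against DN1, 4 for DN3 against DN2, 0 for DN4 against DN3, 5 for DN4 against DN1 and 4 for CLP against the DN mean. With the block, the count over all genes stayed within 1.5 times of that of the main fit in every comparison. The block changed the call of Pdcd1 in CLP (0.70, adjusted p = 0.051), of Ctla4 in the F test (adjusted p = 0.0384) and of Sh2d2a in the F test (adjusted p = 0.0298).

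The values that turned sign were not called either way. They became -0.0321 for Cd69 in DN2 against LSK and 0.0210 for Cd274 in CLP against the DN mean under quantile normalization, and 0.0637 for Ctla4 in DN2 against LSK and -0.00654 for Cd274 in DN4 against DN1 under median centring. Leaving out 1 array gave ranges that cross 0. Against LSK they were -0.279 to 0.0213 for Icos in DN1, -0.0547 to 0.0243 for Ctla4 in DN2 and -0.148 to 0.146 for Cd69 in DN2. They were -0.193 to 0.154 for Cd160 in DN2 against DN1, and in DN3 against DN2 -0.209 to 0.160 for Cd160 and -0.0196 to 0.148 for Cd274. In DN4 against DN3 they were -0.0997 to 0.0246 for Cd28, -0.165 to 0.0456 for Icos and -0.113 to 0.282 for Cd6. For Cd274 in DN4 against DN1 the range was -0.0369 to 0.169, and for Ctla4 in CLP against the DN mean -0.0936 to 0.0753. Signals near or under the olfactory receptor gauge, as for Ctla4 and for Icos in DN1 and DN2, cannot be ordered.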

Other observations

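Cd28, Ctla4 and Icos are direct neighbours on chromosome 1. Cd28 was called higher than LSK in 5 of 5 fractions and Icos in 3, a difference between genes that was not tested, and Ctla4, under the gauge on all arrays, shows no course. Cd5 and Cd6, direct neighbours on chromosome 19, had their 6 group means in the same order. Ligand and receptor genes could be read on the same arrays. In DN4 against DN1 the shared CD28 and CTLA-4 ligand Cd80 differed by -2.03 and Pdcd1 by -1.14, whereas the PD-1 ligand Cd274 differed by 0.04 and was not called (adjusted p = 0.96). Nrp1, listed with the regulatory T cell markers and named here after its values were seen, was higher by 0.72 in DN4 than in DN1 (adjusted p = 0.000497) and Ikzf2 by 0.80 (adjusted p = 0.0153), while the other 3 markers of that list were not called, with differences of -0.42 for Tnfrsf18, -0.60 for Ikzf4 and -0.18 for Foxp3, which was under the gauge.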
